A study of Mus musculus with 6 samples.

Results

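Transcripts of 10 genes that carry, store, export or sense iron were followed in mouse liver after portal vein surgery. The genes were Tfrc, Trf, Steap3 and Slc11a2 (uptake), Fth1 and Ftl1 (storage), Slc40a1 and Cp (export), and Aco1 and Ireb2 (regulation). They were kept whatever their values, and their probes were taken by the RefSeq transcript accession that the array design gives each probe. This found 15 of the 55681 probes that were not controls, with several probes for 4 genes and 1 probe for each of the other 6. All 15 were among the 27914 probes tested, that is, well above background on every array of at least 1 group.

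The arrays measured total RNA of right liver lobes from male C57BL/6J mice, 3 days after an operation. In the PVBL group (portal vein branch ligation) the left branch of the portal vein had been tied off, and the right lobe, which regenerates, was collected. The sham group had sham surgery, and no drug, deletion or transgene is named for either group. There were 3 samples in each group, 1 single-colour Agilent array per sample. Whether these came from separate animals is not stated, so p-values cover only the variation among the samples at hand, part of which may be technical.

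Iron travels in blood bound to transferrin, which hepatocytes secrete, and cells take it up through transferrin receptor 1. Inside the endosome the iron is reduced by the ferrireductase STEAP3 and leaves through the transporter DMT1, after which it is used, stored in ferritin cages or exported by ferroportin. Ceruloplasmin, a copper enzyme made by hepatocytes, oxidises exported iron so that transferrin can bind it. In iron-poor cells the iron regulatory proteins IRP1 and IRP2 bind hairpins in mRNAs. This stabilises transferrin receptor mRNA and blocks the translation of ferritin mRNA, so that ferritin protein can change with no change in its transcript. In the liver, hepatocytes hold most stored iron, and Kupffer cells, the resident macrophages, recycle iron from old red cells.

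Promoter windows, 250 bases before to 50 bases after an annotated start, were matched in the RefSeq table (GRCm38.p6) for 7 of the 10 genes, 13 windows in all. Those of Tfrc, of the ferritin genes Fth1 and Ftl1 and of Cp are shown as examples of an uptake, 2 storage and an export gene. Each reads 5′ to 3′ along its gene, and capitals mark matches on either strand to ACGTG (the core of the hypoxia response element), to CCAAT, to TATAA (the TATA box) or to GGGCGG (the GC box). The windows are Tfrc at chr16:32608646-32608945 on the plus strand, Fth1 at chr19:9982396-9982695 on the plus strand, Ftl1 at chr7:45459837-45460136 on the minus strand and Cp at chr3:19956999-19957298 on the plus strand.
Tfrc: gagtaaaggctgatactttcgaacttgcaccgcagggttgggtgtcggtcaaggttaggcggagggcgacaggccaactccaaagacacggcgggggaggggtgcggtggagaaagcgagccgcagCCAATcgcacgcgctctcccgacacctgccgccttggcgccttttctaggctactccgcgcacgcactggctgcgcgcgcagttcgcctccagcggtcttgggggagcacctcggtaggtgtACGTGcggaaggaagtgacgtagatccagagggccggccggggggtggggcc
Fth1: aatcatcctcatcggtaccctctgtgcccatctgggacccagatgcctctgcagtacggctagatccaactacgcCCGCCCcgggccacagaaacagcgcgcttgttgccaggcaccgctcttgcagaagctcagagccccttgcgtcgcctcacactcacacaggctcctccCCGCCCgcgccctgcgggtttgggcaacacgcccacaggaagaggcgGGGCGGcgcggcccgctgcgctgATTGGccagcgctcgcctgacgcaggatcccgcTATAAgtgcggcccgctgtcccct
Ftl1: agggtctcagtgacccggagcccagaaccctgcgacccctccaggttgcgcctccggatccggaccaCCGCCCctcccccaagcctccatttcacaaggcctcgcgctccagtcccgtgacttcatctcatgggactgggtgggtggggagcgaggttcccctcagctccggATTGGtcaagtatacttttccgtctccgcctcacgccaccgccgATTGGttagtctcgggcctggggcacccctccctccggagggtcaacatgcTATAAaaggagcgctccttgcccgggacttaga
Cp: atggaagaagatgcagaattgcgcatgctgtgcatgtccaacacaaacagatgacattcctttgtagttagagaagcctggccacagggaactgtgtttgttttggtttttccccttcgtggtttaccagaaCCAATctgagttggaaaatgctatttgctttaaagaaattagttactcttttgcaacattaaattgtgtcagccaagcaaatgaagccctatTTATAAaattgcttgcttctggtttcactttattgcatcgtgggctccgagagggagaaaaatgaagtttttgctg

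In the printed Tfrc window ACGTG began 2 bases before the annotated start and CCAAT 124 bases before it. The 2 Tfrc windows in the table overlap and hold this same ACGTG, and no window of the other 6 genes held it, whereas 19.6% of all 32851 windows did. In Cp, CCAAT began 118 and TATAA 25 bases before the start. Both ferritin windows held TATAA shortly after the start (at base 27 in Fth1 and base 18 in Ftl1) and the CCAAT letters on the opposite strand, 7 bases before the start in Fth1 and 78 and 34 before in Ftl1. Over the 13 windows, CCAAT was in 5 (37.4% of all windows hold it), TATAA in 5 (24.9%) and GGGCGG in 7 (35.7%). CACGTG, which contains ACGTG, was in 0 (7.15%), TTCNNNGAA, a STAT motif, in 0 (8.30%), TGANNNNGC, the core of the antioxidant response element, in 2 (41.3%) and CAGTGN, the loop letters of the iron-responsive element, in 6 (55.8%). These are letter matches on either strand and were not measured as sites.

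Levels below are log2 of the processed signal minus the array's 75th percentile, so 0 is the signal at that percentile. It was 203 to 407 signal units, 48.0% to 53.6% of the probes were well above background on an array, and no spot was saturated. A level of 1 probe cannot be set against that of another. All 6 arrays shared 1 slide, with sham in its row 1 and PVBL in its row 2, and the effects of row and operation cannot be told apart. PVBL 3 stood apart from PVBL 1 and PVBL 2 on the second principal component, which held 13.4% of the variance. In the limma fit with Benjamini-Hochberg adjustment (threshold 0.05), 30.5% of all tested probes were called, 11.3% higher and 19.3% lower in PVBL, and the median log2 difference over all of them was -0.19.

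Of the 15 iron probes, 4 rose, 1 fell and 10 missed the threshold (adjusted p from 0.0562 to 0.503, limma). The rises were those of the 3 Tfrc probes and 1 of 2 Steap3 probes, and the fall that of 1 of 2 Slc11a2 probes. That is 5 of 15 called, near the 30.5% over all probes. The median log2 difference of the 15 probes was -0.13, against -0.19 over all probes. By the brightest probe of each gene, 2 of 10 genes rose, 1 fell and 7 missed the threshold, with a median of -0.19, whereas 31.2% of all 13586 genes with a tested probe were called and their median was -0.10. The values of PVBL and sham did not overlap for 11 of the 15 probes, against 50.7% of all tested probes with values on all 6 arrays.

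**Figure D1:**
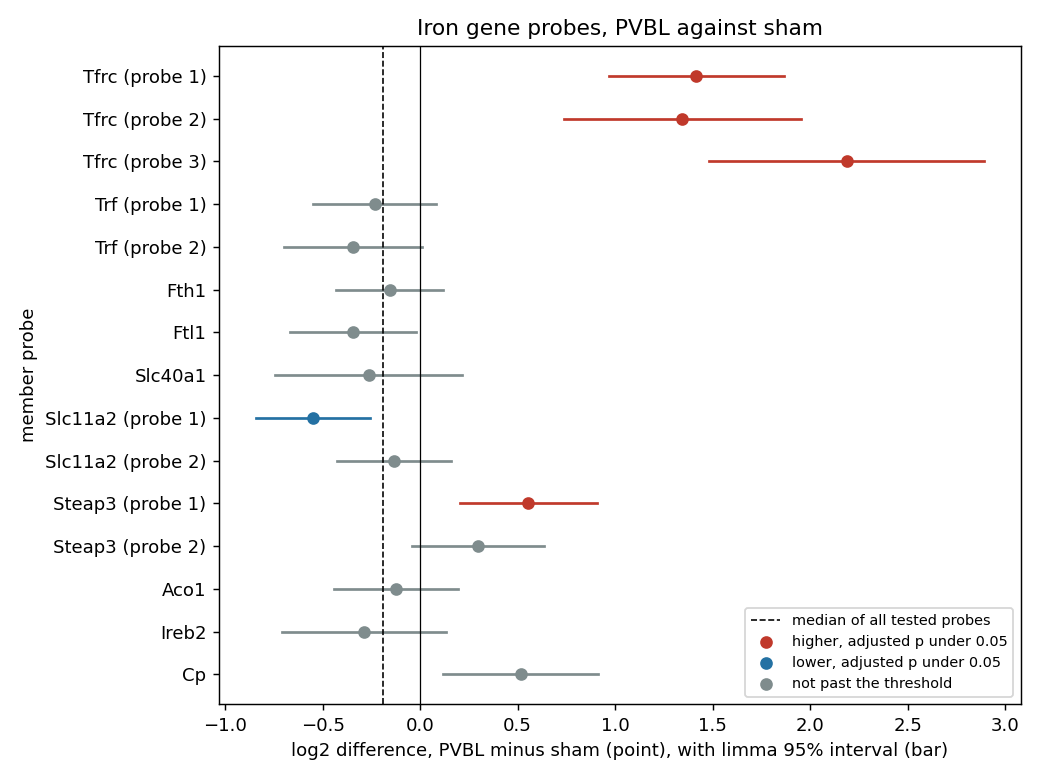
Log2 difference (PVBL minus sham, x axis) of each of the 15 iron probes with its 95% interval from limma, n = 3 per group, coloured by call, with a dashed line at the median of all tested probes. The Tfrc probes lie farthest from 0, the Trf, ferritin, Slc40a1, Aco1 and Ireb2 probes lie between -0.34 and -0.12, and Cp lies at 0.52.

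Tfrc, the gene of transferrin receptor 1, rose in PVBL in all 3 of its probes. Its brightest probe (A_52_P228236, 10 spots per array) had levels of 0.62, 1.02 and 0.33 in PVBL 1 to 3 and -0.70, -0.87 and -0.71 in sham 1 to 3. Every PVBL array was above every sham array, with PVBL 2 highest. The means were 0.66 ± 0.35 and -0.76 ± 0.09 (SD, n = 3), a log2 difference of 1.42 ± 0.19 (SE), or 2.67-fold (95% interval 1.96 to 3.65; limma adjusted p = 0.0030). A rise this large was not common: 3.45% of the tested probes rose by more, and 5.34% were called and at least 2-fold higher.

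The second Tfrc probe (A_65_P06446) gave -0.30, 0.36 and -0.60 in PVBL and -1.26, -1.63 and -1.67 in sham, again with no overlap and with PVBL 2 highest. Its log2 difference was 1.34 ± 0.26, or 2.54-fold (limma adjusted p = 0.0103, n = 3 per group). The third probe (A_51_P167876) was dim, at 4.59 to 36.7 signal units over the 6 arrays, and was not well above background on any sham array. Its levels were -3.78, -3.17 and -3.24 in PVBL and -5.75, -6.04 and -4.97 in sham. It was at least 1.77-fold higher in PVBL, the PVBL mean set against the lowest signal that counted as well above background on each sham array (limma adjusted p = 0.0031 for the fitted difference). Normexp background correction, which adds 50 units to every signal, lowered that fitted difference from 2.19 to 0.24 and ended its call (adjusted p = 0.270). The brightest probe stayed called in all 16 alternative settings (log2 differences from 1.12 to 1.85, adjusted p from 0.00015 to 0.0194). Of these settings, 1 was the deposited value table, where 7649 of 7849 probes were called, so a call there says little.

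**Figure D2:**
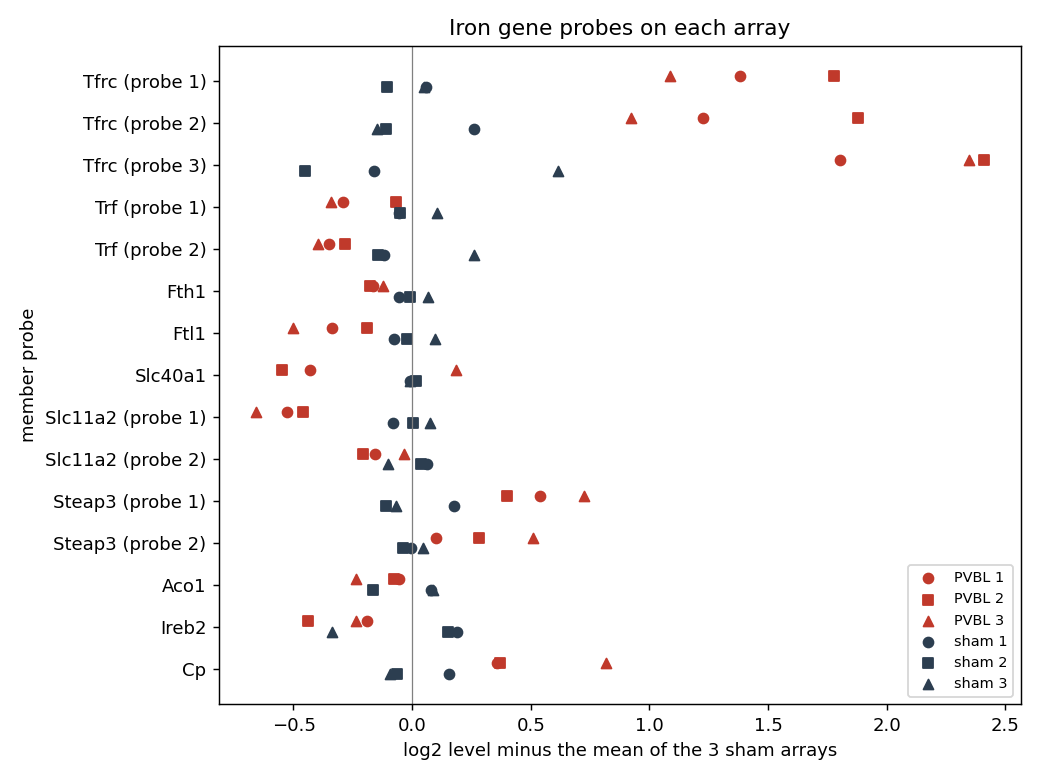
Log2 level of each iron probe on each of the 6 arrays (points, PVBL in red and sham in dark blue), shown minus the mean of the 3 sham arrays. The PVBL and sham points of all 3 Tfrc probes are apart, whereas those of Slc40a1, Aco1, Ireb2 and the second Slc11a2 probe overlap.

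Dividing cells and red cell precursors carry much transferrin receptor, and their markers were read beside Tfrc. In bulk tissue, fewer cells of a type and less RNA per cell cannot be told apart. All 6 proliferation markers (Mki67, Top2a, Cdk1, Ccnb1, Ccna2 and Pcna) rose. Their summed signal was 58.9 to 94.3 times the array's 75th percentile in PVBL and 10.8 to 12.5 times in sham. Most of the sham sum was Pcna, which rose 3.28-fold, so the sum rose less than the other markers did. Cdk1, Ccnb1, Mki67 and Ccna2 rose 33.5-fold, 46.0-fold, 66.8-fold and 72.0-fold. Top2a, not well above background on any sham array, rose at least 33.1-fold. PVBL 2, highest for the brighter 2 Tfrc probes, was also highest for the summed signal and for each marker except Top2a. Top2a was highest on PVBL 3 (0.78, 0.82 and 0.89 in PVBL 1 to 3). The part of these markers in the Tfrc result was not tested. None of the erythroid markers read here rose (none at an unadjusted p under 0.05 either, limma): of 6 with a probe, Epb42, Gata1 and Rhag were not well above background on any array, Klf1 fell 3.95-fold and Epor 1.57-fold. Slc4a1, the red cell anion exchanger gene, was not called (log2 difference 0.28 ± 0.52, limma adjusted p = 0.699), with levels of -2.03, 0.14 and -1.75 in PVBL and -1.35, -1.54 and -1.58 in sham, so it was highest on PVBL 2, the array that was also highest for Tfrc. Its part in the Tfrc result was not tested. The summed signal of the 6 was 1.08 to 1.79 in PVBL and 1.65 to 2.11 in sham. Klf1 fell by 1.09 on the log2 scale with normexp, and the call of Epor was lost with quantile, median or spike-in scaling and without any array but PVBL 3 (-0.81 to -0.47 over the arrays left out in turn).

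Steap3, the ferrireductase gene of the transferrin cycle, rose in 1 of its 2 probes. The brighter probe (A_55_P2096883) had levels of 1.96, 1.82 and 2.14 in PVBL and 1.60, 1.31 and 1.35 in sham, with no overlap. Its log2 difference was 0.56 ± 0.15 (SE, n = 3 per group), or 1.47-fold (limma adjusted p = 0.0303), and 11.8% of all tested probes rose by more. The other probe gave 1.43, 1.61 and 1.84 in PVBL and 1.32, 1.29 and 1.37 in sham, a log2 difference of 0.30 ± 0.14 (adjusted p = 0.151), so the probes differed in call. The call of the brighter probe was lost without PVBL 1 (0.56), PVBL 3 (0.47), sham 1 (0.64), sham 2 (0.50) or sham 3 (0.52), with adjusted p from 0.0535 to 0.101, and also with spike-in scaling (0.98) and with no filter on dim probes.

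Slc11a2, which encodes the transporter DMT1, fell in 1 of its 2 probes. The brighter probe (A_51_P388737) had levels of -1.04, -0.97 and -1.17 in PVBL and -0.59, -0.51 and -0.43 in sham, every PVBL array below every sham array. Its log2 difference was -0.55 ± 0.13, or 1.46-fold lower (limma adjusted p = 0.0181, n = 3 per group). The other probe, at -2.60, -2.65 and -2.48 in PVBL and -2.38, -2.41 and -2.55 in sham, overlapped between groups and was not called (-0.13 ± 0.12, adjusted p = 0.432). The call of the brighter probe was lost without PVBL 1 (-0.56), sham 1 (-0.59), sham 2 (-0.55) or sham 3 (-0.51), with adjusted p from 0.0534 to 0.0622, and with spike-in scaling (-0.12) and no filter on dim probes (adjusted p = 0.0883).

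Trf, the transferrin gene, showed no change past the threshold. Its brighter probe (A_55_P2037585) had levels of 9.997, 10.22 and 9.95 in PVBL and 10.23, 10.24 and 10.39 in sham, the lowest sham array only just above the highest PVBL array. The log2 difference was -0.23 ± 0.13 (95% interval -0.55 to 0.08; limma adjusted p = 0.218). The second Trf probe gave 9.73, 9.80 and 9.68 in PVBL and 9.96, 9.93 and 10.34 in sham, a difference of -0.34 ± 0.15 (adjusted p = 0.121). The highest Trf signal was 53.4% of the saturation value of 778784 units, and no Trf spot was saturated.

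The ferritin genes, which encode the heavy (Fth1) and light (Ftl1) chains of the iron storage cage, were lower on every PVBL array than on every sham array, by differences that missed the threshold. Fth1 (A_52_P49601) had levels of 9.28, 9.27 and 9.32 in PVBL and 9.39, 9.44 and 9.51 in sham. Its log2 difference was -0.16 ± 0.12 (SE, n = 3 per group; limma adjusted p = 0.329), and the 95% interval ran from 0.743-fold to 1.09-fold. Ftl1 (A_55_P1968245) had levels of 9.48, 9.63 and 9.32 in PVBL and 9.75, 9.80 and 9.92 in sham, a difference of -0.34 ± 0.14 (adjusted p = 0.0942). The spread between arrays was small for both genes (SD from 0.03 to 0.16). Both genes have many pseudogene copies, so their probes may also meet copies. Their signals reached 32.5% (Fth1) and 37.3% (Ftl1) of saturation.

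Slc40a1 encodes ferroportin, the exporter of cellular iron, which hepcidin removes from the cell surface. Its levels were 4.55, 4.43 and 5.16 in PVBL and 4.97, 4.99 and 4.97 in sham (A_51_P389988). PVBL 1 and PVBL 2 lay below all sham arrays and PVBL 3 above them, so the groups overlapped, and the sham arrays differed by an SD of only 0.01. The log2 difference was -0.26 ± 0.20 (95% interval -0.74 to 0.22; limma adjusted p = 0.344, n = 3 per group). Without PVBL 3 it was -0.49 and was called lower (adjusted p = 0.0301, against 0.344 with all arrays). As PVBL 3 held the highest PVBL value, leaving it out could only lower the difference. No other array left out gave a call: the difference was -0.18 without PVBL 1, -0.12 without PVBL 2 and -0.27 to -0.26 without 1 sham array. With spike-in scaling it was 0.17.

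Kupffer cells carry much ferroportin, and their markers were also high on PVBL 3. All 9 Kupffer markers with a probe (Clec4f, Vsig4, Cd5l, Marco, Timd4, Adgre1, Csf1r, C1qa and Folr2) were higher on PVBL 3 than on PVBL 1 and PVBL 2. Their summed signal, relative to the 75th percentile, was 118 and 124 on PVBL 1 and PVBL 2, 296 on PVBL 3 and 154 to 173 on the sham arrays. With all arrays, 1 of the 9 rose (Marco, a scavenger receptor, 5.72-fold) and none fell (also none at an unadjusted p under 0.05, limma), with a median log2 difference of -0.37 (0.059 with spike-in scaling). Without PVBL 3, 7 of the 9 fell and 1 rose, with a median of -0.82. PVBL 3 held the highest PVBL value of all 9, so leaving it out could only lower their differences. Over all 27914 tested probes in that setting, 5265 were called lower and 3262 higher, with a median of -0.17. High values on PVBL 3 were not confined to Kupffer markers. The sinusoidal endothelial sum was 47.0, 56.3 and 70.9 in PVBL 1 to 3, and the monocyte and neutrophil sum 12.2, 15.1 and 25.2. In these 2 lists Kdr (4.45, 4.71 and 4.15) and Elane (2.38, 2.70 and 1.91) were lowest on PVBL 3. The other tested markers of both lists were highest there. The stellate sum was 90.2, 95.7 and 99.0, but its brightest gene, Dcn, was highest on PVBL 2 (6.40, 6.51 and 6.46). Reln was lowest on PVBL 3 (-1.64, -0.49 and -1.82). The hepatocyte, erythroid, biliary, lymphocyte and proliferation sums were not highest on PVBL 3. The part of any of these cells in the Slc40a1 values was not tested.

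**Figure D3:**
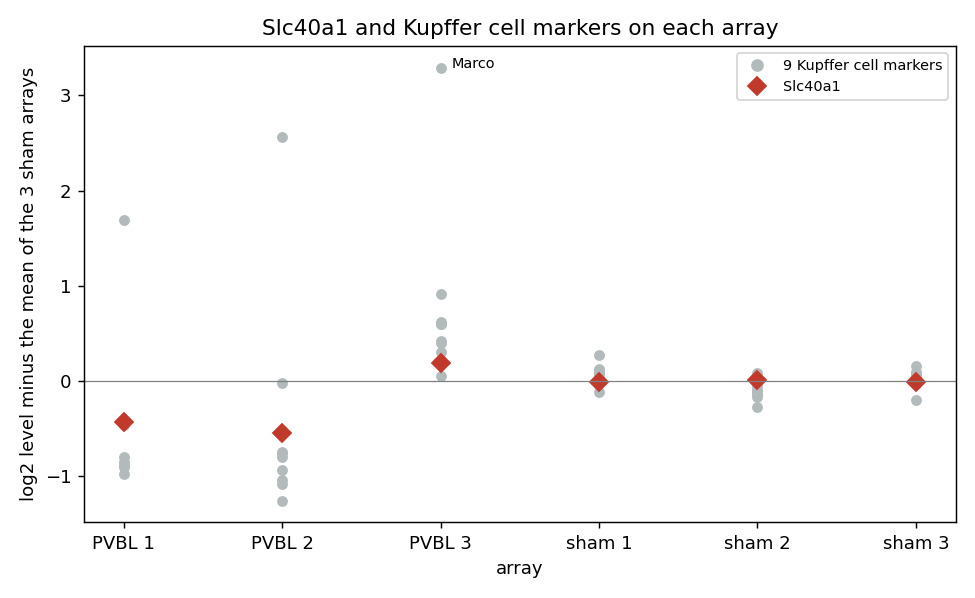
Log2 level of Slc40a1 (red diamonds) and of the 9 Kupffer cell markers (grey points) on each array, each minus its mean over the 3 sham arrays. On PVBL 3 the Slc40a1 value and the markers all lie above their own values on PVBL 1 and PVBL 2.

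Cp, the ceruloplasmin gene, was higher on every PVBL array than on every sham array but narrowly missed the threshold. Its levels (A_55_P2111302) were 8.04, 8.05 and 8.49 in PVBL and 7.83, 7.62 and 7.58 in sham, with PVBL 3 highest. The log2 difference was 0.52 ± 0.17 (SE, n = 3 per group), or 1.43-fold (limma adjusted p = 0.0562). It was called higher with normexp (0.62, adjusted p = 0.0199), quantile scaling (0.76, 0.0405), median scaling (0.65, 0.0399) and the filter that asks for signal on all arrays (0.52, 0.0491). Leaving out single arrays gave 0.36 to 0.59.

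The regulators showed no change past the threshold. Aco1 encodes IRP1, which is also the cytosolic aconitase, and had levels of -0.70, -0.72 and -0.88 in PVBL and -0.57, -0.81 and -0.56 in sham, overlapping between groups. Its log2 difference was -0.12 ± 0.14 (95% interval -0.44 to 0.19; limma adjusted p = 0.503, n = 3 per group). Ireb2 encodes IRP2, which is degraded in iron-rich cells. It had levels of -1.19, -1.44 and -1.24 in PVBL and -0.81, -0.85 and -1.34 in sham, where sham 3 lay within the PVBL values (-0.29 ± 0.18, 95% interval -0.71 to 0.13, adjusted p = 0.246). The RNA-binding activity of these proteins is not read by an array.

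A difference between 2 genes on the same array is not moved by scalings that subtract 1 value from the whole array (75th percentile, median or spike-in), but it is moved by quantile scaling. The brightest Tfrc probe over Fth1 was higher on all 3 PVBL arrays than on any sham array, by 1.57 on the log2 scale, or 2.97-fold (SD 0.37 in PVBL and 0.11 in sham). A two-sided exact permutation test gave p = 0.10, the smallest that 3 against 3 arrays allow (0.30 after Benjamini-Hochberg adjustment over 3 ratios). With normexp the difference was 1.20 and with quantile scaling 1.15. Fth1 over Ftl1 differed by 0.19 (SD 0.18 in PVBL and 0.03 in sham, exact permutation p = 0.30, adjusted 0.45). Aco1 over Ireb2 differed by 0.16 (SD 0.18 in PVBL and 0.38 in sham, exact permutation p = 0.50, adjusted 0.50). The values of PVBL and sham overlapped for both ratios.

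The direction of the small differences depended on scaling. The median over all tested probes was -0.12 with quantile scaling, -0.06 with median scaling and 0.24 with spike-in scaling, where the array's spike-in control spots set the scale. The share of called probes that were higher was 36.9% in the main setting, 54.8% with median scaling and 85.3% with spike-in scaling. The brighter 2 Tfrc probes stayed higher in every scaling (1.41 to 1.85 and 1.34 to 1.77), and so did both Steap3 probes and Cp. The Trf, Fth1 and Ftl1 differences were below 0 with the 75th percentile and above 0 with quantile and with spike-in scaling. Those of Slc40a1, Aco1, Ireb2 and the second Slc11a2 probe were above 0 with spike-in scaling, and that of Aco1 also with median scaling. The storage genes therefore had no direction common to the 4 scalings, while the brighter 2 Tfrc probes lay at least 1.34 above sham in each.

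**Figure D4:**
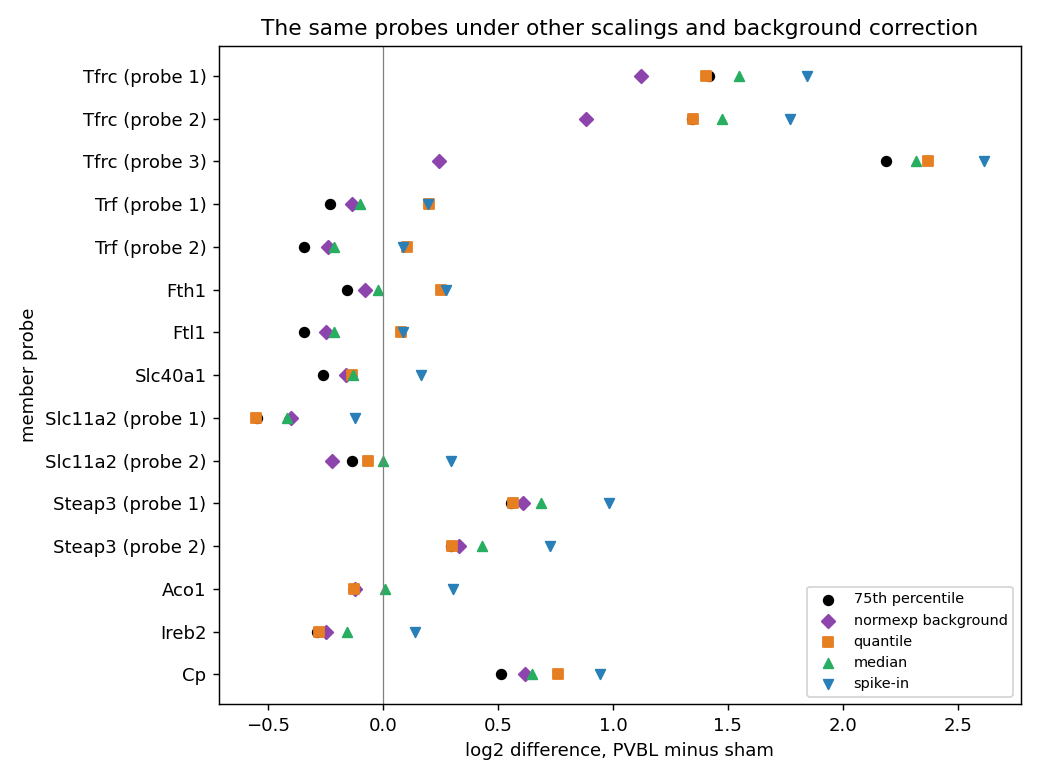
Log2 difference (PVBL minus sham, x axis) of each iron probe under 4 ways of scaling the arrays and with normexp background correction, each setting with its own symbol. The brighter 2 Tfrc probes lie between 1.34 and 1.85 under the 4 scalings and at 1.12 and 0.88 with normexp, whereas the ferritin and Trf points lie on both sides of 0.

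Among 21 other genes of iron transport and storage, 17 were tested by their brightest probe, of which 4 rose, 2 fell and 11 missed the threshold, against 14.4% higher and 16.8% lower over all genes. The median was -0.23, against -0.10 over all genes. Lcn2, lipocalin 2, which binds iron-carrying siderophores, had levels of 6.29, 6.34 and 6.999 in PVBL and 4.69, 4.11 and 2.37 in sham, with sham 3 far below the other sham arrays. It rose 7.07-fold (log2 difference 2.82 ± 0.56, limma adjusted p = 0.0115), or by 2.15 on the log2 scale without sham 3. The metalloreductase genes Steap1 and Steap4 rose 3.11-fold and 1.86-fold (1.64 ± 0.24 and 0.89 ± 0.18), Steap1 by 0.64 with normexp. Pcbp1, an iron chaperone gene, rose 1.36-fold (0.45 ± 0.13, adjusted p = 0.0427) and its relative Pcbp2 fell 1.32-fold (-0.40 ± 0.12, adjusted p = 0.0415; 0.030 with spike-in scaling). Tfr2, the second transferrin receptor gene, which senses iron in hepatocytes, fell 1.71-fold (-0.77 ± 0.24, adjusted p = 0.0475), with levels of 6.80, 6.77 and 6.14 in PVBL and 7.63, 7.38 and 7.004 in sham.

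The calls of Pcbp1, Pcbp2 and Tfr2 were fragile. Pcbp1 lost its call without any array but PVBL 3 (log2 differences 0.38 to 0.54 over the arrays left out in turn), Pcbp2 without any 1 array (-0.42 to -0.36) and Tfr2 without any array but sham 3 (-0.94 to -0.56). Over all alternatives their adjusted p ranged from 0.0077 to 0.182, 0.0052 to 0.987 and 0.0180 to 0.760. The lowest values of Pcbp1 and Pcbp2 came from the deposited value table, where 7649 of 7849 probes were called. Lcn2 and Steap1 stayed called in all 16 alternatives, that table among them.

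Hamp, the gene of hepcidin, the hormone that closes ferroportin, fell 4.52-fold (levels 5.61, 5.44 and 5.22 in PVBL, 7.28, 8.09 and 7.41 in sham; limma adjusted p = 0.0012). The related gene Hamp2 fell 31.9-fold, and the probes may not keep the genes apart. Of 10 genes in the hepcidin list 5 fell, 5 missed the threshold and none rose, against 14.4% higher and 16.8% lower over all genes. The median was -0.75, against -0.10 over all genes. The others that fell were Smad7 (1.82-fold) and Smad6 (1.53-fold), inhibitors of BMP signalling, and Tmprss6 (1.54-fold), a protease that limits hepcidin. Going the other way, Id1 was 1.77-fold higher, at an unadjusted p under 0.05 (limma, adjusted p = 0.0736). With normexp and with spike-in scaling, 1 gene of the list was called higher. The call of Smad7 was lost without PVBL 1, sham 1 or sham 2 (-1.07 to -0.70 over the arrays left out in turn), that of Smad6 without any array but PVBL 3 (-0.76 to -0.52), and that of Tmprss6 without sham 1.

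**Figure D5:**
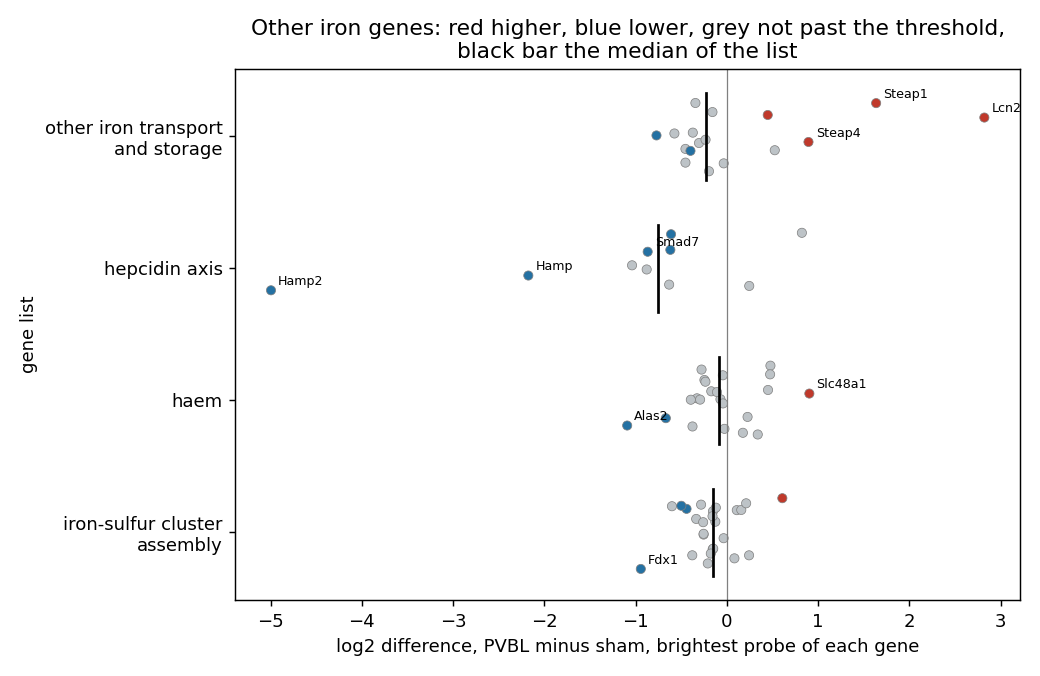
Log2 difference (PVBL minus sham, x axis) of each tested gene of the other iron, haem and iron-sulfur lists, 1 point per gene by its brightest probe, with called genes in red (higher) or blue (lower) and the list median as a black bar. The medians are -0.23 for other iron transport and storage, -0.75 for the hepcidin axis, -0.09 for haem and -0.16 for iron-sulfur cluster assembly.

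Of 22 tested genes of haem synthesis, transport and breakdown, 1 rose and 2 fell, against 14.4% higher and 16.8% lower over all genes. The median was -0.09, against -0.10 over all genes. Slc48a1, a haem transporter gene, rose 1.87-fold (0.90 ± 0.19, limma adjusted p = 0.0133). Alas2, the erythroid enzyme that starts haem synthesis, fell 2.13-fold (-1.09 ± 0.24), though not past the threshold without sham 3, and Slc46a1, a folate and haem transporter gene, fell 1.59-fold (-0.67 ± 0.13), though not without sham 1. Beside Alas2, the erythroid genes Klf1 and Epor fell, Slc4a1 did not, and the erythroid sums of the groups overlapped; their part in that fall was not tested. Of 25 iron-sulfur cluster assembly genes 1 rose and 3 fell, against the same 14.4% and 16.8% over all genes, with a median of -0.16. Nubp1, of the cytosolic pathway, rose 1.52-fold (0.61 ± 0.15), Fdx1, a mitochondrial ferredoxin gene, fell in both of its probes, 1.92-fold in the brighter (-0.94 ± 0.14), Hscb, a co-chaperone gene, fell 1.41-fold and Nfs1, the cysteine desulfurase gene, fell 1.36-fold. Nubp1 lost its call without PVBL 1 or any 1 sham array (0.49 to 0.70 over the arrays left out in turn), Hscb likewise (-0.55 to -0.46) and Nfs1 without any 1 array (-0.49 to -0.41).

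Scaling moved these lists as it moved the members. With spike-in scaling the medians were 0.20 for other iron transport, -0.32 for the hepcidin list, 0.34 for haem and 0.27 for iron-sulfur assembly, and the haem median was also above 0 with quantile and median scaling (0.028 and 0.043). Of the genes named from these lists, Lcn2, Steap1, Steap4, Slc48a1, Hamp and Hamp2 stayed called with spike-in scaling, and the others did not. Calls were also lost with quantile scaling (Tfr2, Pcbp2 and Tmprss6) and with median scaling (Tfr2, Pcbp2, Smad6, Hscb and Nfs1). With no filter on dim probes, Steap4 and Slc48a1 were among those that lost their calls (highest adjusted p 0.0561 and 0.0595 over all alternatives).

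Markers of the other cells in the lobe were read beside these values. The hepatocyte identity of the tissue was plain: all 8 hepatocyte markers were tested, 1 fell and none rose. At an unadjusted p under 0.05 (limma) 3 were lower and none higher. Their summed signal was 2729 to 3674 in PVBL and 3996 to 4312 in sham. Hepatocytes are the main source of Trf and Cp. Their summed markers were lower on all PVBL arrays with the 75th percentile, as were the Trf levels, whereas Cp was higher. The median log2 difference of these markers was -0.33 there, 0.018 with quantile and 0.097 with spike-in scaling. By the brightest probe of each gene, sinusoidal endothelial markers fell in 2 of 7 genes (4 at an unadjusted p under 0.05, limma). Their sum was 47.0 to 70.9 in PVBL and 107.02 to 114 in sham. Of 5 tested monocyte and neutrophil markers none was called by its brightest probe (none at an unadjusted p under 0.05 either, limma), with sums of 12.2 to 25.2 and 13.1 to 16.9. Beyond the brightest probes, 1 of 2 Kdr probes and 1 of 3 Itgam probes were called lower. Stellate markers rose in 1 and fell in 1 of 6, biliary markers rose in 2 and fell in 1 of 4, and lymphocyte markers fell in 1 of 5. The part of these shifts in cell markers in the iron values was not tested.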

How the data were processed

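The deposited scanner files hold intensity values per spot, already corrected for background by Agilent Feature Extraction 10.7.3.1 per the file headers (the submitters' processing notes name 9.1). The series' value table, also deposited, gives log2 values that followed log2 intensities after scaling to the 75th percentile and centring per probe (r of at least 0.9997 per array over 7849 probes). Of those, 7649 were called, so it served as an alternative only. Its scale, centring and direction are known from this match, and its column medians were -0.18, -0.15 and -0.22 in PVBL and 0.17, 0.15 and 0.18 in sham.

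From the scanner files, log2 of the processed signal was taken, control spots (3671) and outlier spots (115 to 201 per array) were left out, replicate spots of each probe were averaged and the array's 75th percentile was subtracted. Probes were tested if every array of 1 or both groups had them well above background. The test was limma 3.58.1 in R 4.3.3 (lmFit, eBayes, two-sided), each probe on its own, with Benjamini-Hochberg adjustment over all 27914. SE is limma's moderated standard error. It was checked on simulated data.

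Names came from matching RefSeq accessions to a RefSeq table (GRCm38.p6; 26413 probes named, 0 with several symbols), the arrays being annotated on mm9, so no gene coordinates are given beyond the RefSeq windows. Genes outside the 10 stand by their brightest tested probe. Every probe of the 10 genes is described, with up to 4 called genes in each direction from each other iron or haem list, and Hamp and Hamp2. Smad6, Id1, Marco, Klf1 and Epor fall outside this rule and were named after their values were seen. The same holds for Slc4a1 and for the other cell and proliferation markers whose own values are given. The members and lists were chosen with earlier results of these data known. Normexp used the median spot signal because the files hold no mean signal. The number of arrays limits precision. A marker gene of the erythroid list is not reported here.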

Additional observations from a re-analysis of the deposited data

How the results depend on the processing

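Over 225 values of the 15 iron probes under the alternatives, 192 kept direction and side of the threshold, 14 lost a call, 6 gained one and 13 changed sign, and the causes were not tested. The calls over all probes numbered 2916 with spike-in scaling, 3621 with no filter on dim probes (of 55681 probes tested), 4475 with 1 probe a gene (of 13586) and 4193 to 8527 with single arrays left out, against 8516. Member probes called lower numbered 0 with spike-in scaling and 0 with no filter (limma; 0 and 1 at an unadjusted p under 0.05), 2 in the deposited table and 0 to 2 with single arrays left out. The added call in that table was the second Trf probe (-0.35, adjusted p = 0.0355, over alternatives that otherwise gave no call). Those called higher numbered 2 of 10 with 1 probe a gene. Tfrc over Fth1 was 1.20 with normexp, which shrinks folds of dim probes by construction, and 1.15 with quantile scaling, an alternative chosen after seeing the data.

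Signs changed with quantile and spike-in scaling for Trf (0.20 and 0.20 in one probe, 0.11 and 0.085 in the other), Fth1 (0.25 and 0.27) and Ftl1 (0.077 and 0.085), with median and spike-in scaling for Aco1 (0.0080 and 0.30), and with spike-in scaling for Slc40a1 (0.17), the second Slc11a2 probe (0.30), Ireb2 (0.14) and Pcbp2 (0.030). With the replicate number as a replicate block, 7386 probes were called, 4 iron probes higher and 1 lower, and Pcbp1, Pcbp2, Hscb, Nfs1 and Epor lost their calls (adjusted p 0.0514 to 0.0869). Same-numbered samples correlated at 0.20, -0.039 and 0.23 in their deviations from the group means, so the numbers were not taken as pairs. Slide as a block was not run because there was 1 slide.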
